A study of Rattus norvegicus with 6 samples.

Results

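The genes described here encode the proteins of the cytosolic ribosome. They were found as the probe sets whose platform annotation gives exactly 1 gene symbol and whose symbol is that of a 40S or 60S ribosomal protein, with kinases such as Rps6ka1 and the mitochondrial ribosomal proteins left out. The rule uses no measured value, though it was set with earlier results of these data known. It gave 58 of the 8799 probe sets on the array, for 39 genes of the 4736 with a symbol of their own, of which 12 belong to the small (40S) and 27 to the large (60S) subunit. Of these, 57 probe sets passed a filter that left out the dimmest 40% of probe sets and were tested among 5244. The remaining one, a dim probe set for Rpl3l, measured 4.1, 23.7 and 10.2 on the non-runner arrays and 12.8, 4.6 and 4.4 on the runner arrays. Another 39 probe sets carry several symbols that include a ribosomal protein, and 6 carry the symbol of a ribosomal protein copy or pseudogene. Neither kind was counted as a member. Rplp1, Rplp2, Rps27, Rps27a, Rps4x and Rpl10a have no probe set of their own under this rule.

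The RNA came from whole aorta of SHR, the spontaneously hypertensive rat, an inbred strain with high blood pressure. Both groups were SHR. The runners had a running wheel in the cage and ran of their own accord for 5 weeks, and the non-runners did not run. Each group had 3 Affymetrix rat arrays, called A, B and C here (the runner arrays are also D, E and F in the labels), and each array carried RNA pooled from 3 aortae. Age and sex are not given in the sources used here, nor is the way animals were divided among the pools, so the p-values reflect how far pools differed from each other, in part perhaps for technical reasons.

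Ribosomes translate messenger RNA into protein, and each carries 1 copy of nearly every ribosomal protein, so these genes are strongly transcribed in most cells. Their messenger RNAs begin with a C followed by a run of pyrimidines, the 5′ terminal oligopyrimidine (TOP) tract, through which the mTOR pathway controls how much of them is translated. That control acts on translation, which an array of RNA levels does not measure. In arteries, ribosome production is known to be raised when smooth muscle cells grow.

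In short, ribosomal protein transcripts were among the brightest signals of the aorta, and no ribosomal protein probe set differed between runners and non-runners past the threshold. Differences of the 57 tested probe sets had a median of -0.07 on the log2 scale (runner minus non-runner), ranged from -1.17 to 0.54, and lay within 0.3 of 0 for 43 of them. Runner values lay all below non-runner values for 15.8% of the tested members, against 7.49% of all tested probe sets and 13.9% of the brightest 10%. A slight lean toward lower values in runners lay in 60S genes such as Rpl19, Rpl26, Rpl35 and the dim Rpl17, and it was smaller without 1 array, non-runner B. Without that array the median was -0.02 and the range -0.47 to 0.33.

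Array quality and tissue content bear on all of this. Array B of the non-runners stood apart: the ratio of the 3′ to the 5′ control probe set of beta-actin was 2.14 on it and 1.22 to 1.67 on the other arrays, and that of GAPDH was 1.95 against 1.11 to 1.39. The ratios for the bacterial Thr and Phe control transcripts were also highest there, at 6.32 against 3.65 to 3.84 and 3.00 against 1.68 to 1.93. The labelled tissue matched its markers: all 8 smooth muscle markers on the array were above the control level of 40.8 (defined below) on every array, and their summed intensity was 13243 to 15236 in non-runners and 13055 to 14078 in runners. No marker of any list was at 0. Brown fat markers summed to 2053, 1191 and 2203 in non-runners A, B and C and to 1690, 2132 and 1249 in runners, and red cell markers to 1416 to 1910 in non-runners and 2131 to 4402 in runners. Nerve and Schwann cell markers summed to 1337 to 1587 and 1050.1 to 1179, and endothelial markers to 576.5 to 712.4 and 558.3 to 562.6, in non-runners and runners in that order. Only 2 of 7 nerve and 4 of 9 endothelial markers were above the control level on all arrays. All 5 tested nerve markers were lower, with Pmp22, the brightest, at means of 1010 and 789.7. Of 7 tested endothelial markers, 6 were lower and 1 higher. Egfl7 had means of 118.8 and 28.6, while Pecam1 went the other way, at 133.5 and 171. Fibroblast, adipocyte, macrophage and lymphocyte marker sums overlapped between groups except those of lymphocytes, at 465.8 to 615.4 and 315.9 to 450.2. Only 2 lymphocyte markers were tested: Cd74, with means of 430 and 290, and Cd4, with 65.9 and 67.6. The lower lymphocyte sum in runners thus follows Cd74. The part of these markers in the results below was not tested. In bulk tissue, fewer cells of a type and less RNA per cell cannot be told apart.

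The levels of the members were high. The values deposited by the authors are intensities on a linear scale, and the median member had a mean intensity of 1064, against 76.5 for all tested probe sets. The median member lay at the 97.1 percentile of all probe sets, and 46 of the 57 tested were in the brightest 10%. By the brightest probe set of each gene, 26 of 39 genes had a mean over 1000, from 3389 for Rps29 down to 22.7 for Rpl5. Intensities of different probe sets depend on their probes and are not compared as amounts of RNA.

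The control level used here, an intensity of 40.8, is the 95th percentile over 19 control probe sets whose targets are yeast genes or sense strands. No detection calls were used. All 12 genes of the 40S subunit and 23 of 27 genes of the 60S subunit were above it on all 6 arrays. The other 4 were Rpl3l, Rpl5, Rpl17 and Rpl30. Rpl5, a partner of the 5S ribosomal RNA, measured 16.6, 38.8 and 22.2 in non-runners and 23.5, 17.3 and 17.5 in runners. All 6 values were below the control level, so no fold is given for it.

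**Figure D1:**
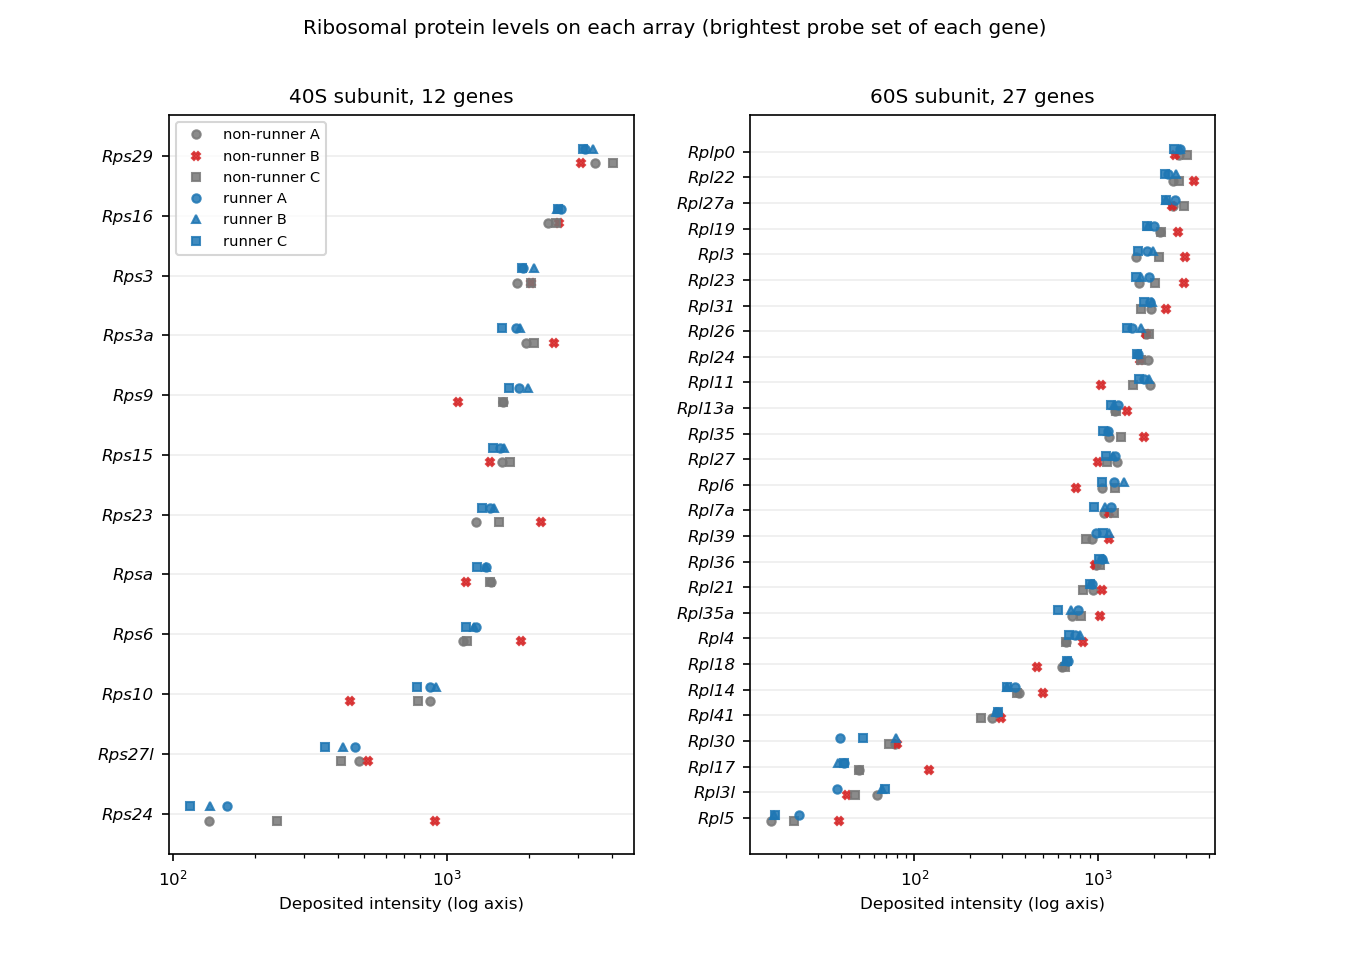
Deposited intensity (log axis) of the brightest probe set of each ribosomal protein gene, with the 12 genes of the 40S subunit on the left and the 27 of the 60S subunit on the right. Each point is 1 array: grey for non-runners A and C, red crosses for non-runner B, blue for runners. Blue and grey points lie close together for many genes, but are more spread for Rps24, Rpl30 and Rpl3l. Red crosses lie above both for genes such as Rps24 and Rpl23 and below both for Rps10 and Rpl11.

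The members' summed intensity was 5.26%, 5.73% and 5.40% of the array total on non-runner arrays A, B and C and 5.27%, 5.32% and 4.95% on the runner arrays. Array B of the non-runners was the highest and runner C the lowest, and the groups overlapped. The share was 5.46% ± 0.24 (SD, n = 3) in non-runners and 5.18% ± 0.20 in runners, and the non-runner mean without array B was 5.33%. Divided by subunit, the shares were 2.08% ± 0.059 and 2.01% ± 0.061 for 40S and 3.38% ± 0.19 and 3.17% ± 0.14 for 60S, in non-runners and runners in that order. The probe sets with several symbols, which were not members, showed 3.77% ± 0.063 and 3.74% ± 0.12.

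Sequences at the annotated start of some member genes are shown because the TOP tract, where it is present, lies there; 11 of the 35 genes with a window had it at that base. A window around the annotated start was found in the RefSeq promoter table of the rat assembly GRCr8 for 35 of the 39 genes, with 10 bases before and 20 bases from the start printed here, and the tract in capitals. Rpl27, Rpl30, Rps9 and Rps29 had no entry. The genes printed were taken by their values and do not represent all 35. The first 4 genes below are members whose runner values all lay below the non-runner values, and Rplp0 and Rps15 are members with little difference. Rpl18 has no tract at its annotated start, and its runner values were all higher. By the brightest probe set, runner values were all lower for 5 of the 11 genes with the tract. They were all lower for 2 of the 24 without it, Rpl24 and Rpl26 (not printed). The share was 7.49% of all tested probe sets and 13.9% of the brightest 10%. Of the 11 genes with the tract, 3 had a difference above 0, among them Rpl39 (0.17, not printed).
Rps3a, chr2:173827023-173827052, minus strand: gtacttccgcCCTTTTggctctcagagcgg
Rpl14, chr8:129163610-129163639, plus strand: ggccctctccCTTCTCgctgagcgccgcca
Rpl19, chr10:83519054-83519083, plus strand: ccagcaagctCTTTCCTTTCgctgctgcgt
Rpl35, chr3:43165902-43165931, minus strand: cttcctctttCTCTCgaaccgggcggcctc
Rplp0, chr12:46718371-46718400, minus strand: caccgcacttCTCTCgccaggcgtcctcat
Rps15, chr7:10068096-10068125, minus strand: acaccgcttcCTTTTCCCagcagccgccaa
Rpl18, chr1:105325260-105325289, plus strand: acctggtctagcaggaggcgccatcatggt

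A C at the annotated start base followed by at least 4 pyrimidines, on the gene's strand, was present in these 11 member genes (31.4%) and in 2.63% of all 33469 windows in the table. In the whole 300-base windows (250 bases before and 50 from the start), both strands were searched for 3 motifs. CCGGAAG, the core bound by ETS factors, was found in 9 members (25.7%, against 8.75% of all windows), AAGATGG, the core bound by YY1, in 8 (22.9% against 7.01%), and TATAAA, the TATA box, in 4 (11.4% against 14.2%). CCGGAAG ends in the AAG with which AAGATGG begins, so these matches can overlap. In Rpl7a, Rpl13a and Rps3, an AAGATGG lies in the 20 bases from the annotated start. Whether a match is a YY1 site or holds the ATG of a start codon was not tested. Among the 11 members with the tract, 8 had a difference below 0 and the median was -0.27, or -0.13 without non-runner B. Among the 24 with a window and no such C and run at the annotated start base, 13 were below 0. Their median was -0.02, or 0.01 without non-runner B. Some of these 24, such as Rps10, Rps23, Rps24 and Rpl27a, have a pyrimidine run at that base that begins with T. The division thus does not sort genes by whether their RNA has a TOP tract. This division was made after the values were seen and was not tested, and an annotated start need not be the start used in aorta.

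The comparison of runners with non-runners asks whether voluntary running changed the RNA levels of these genes. With limma and Benjamini-Hochberg adjustment over all 5244 tested probe sets, 0 of 57 members passed an adjusted p of 0.05 in either direction, and 0 of all tested probe sets did (0%). At an unadjusted p under 0.05, 0 of 57 members were higher and 0 lower, against 3.83% of all tested probe sets higher and 4.23% lower, and against 4.95% and 4.19% among the brightest 10%. In either direction these shares were 8.07% of all tested and 9.14% of the brightest 10%, against 0 members. That 0 depends on the variance model. With an intensity trend in the variance, 2 members were higher and 4 lower, against 4.08% and 4.56% of all tested probe sets. The smallest unadjusted p of a member was 0.0501 (Rpl17), and the smallest limma adjusted p was 0.618.

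The 95% interval of the difference stayed inside a 2-fold change in both directions for 51 of 57 members (89.5%, against 86% of all tested probe sets and 92.8% of the brightest 10%). It stayed inside a 1.5-fold change for 30 (52.6%, against 43.8% and 59.6%), so these shares lay between those of all tested and of the brightest probe sets. The 6 with wider intervals were probe sets of Rpl5, Rpl17, Rpl21, Rpl30, Rps15 and Rps24, and apart from the Rps15 and Rps24 probe sets these were among the dimmest of the members. The median absolute difference was 0.17 for members, 0.17 for all tested and 0.14 for the brightest 10% of probe sets. Without non-runner B it was 0.08, 0.14 and 0.11 in the same order.

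Signs were uneven: 22 members had a difference above 0 (38.6%, against 49.2% of all tested probe sets and 48.4% of the brightest 10%) and 35 below 0 (61.4%, against 50.8% and 51.6%). The median was 0.00 for the 18 probe sets of 40S genes and -0.09 for the 39 of 60S genes, against -0.01 for all tested and -0.01 for the brightest 10%. Without non-runner B these 4 medians were -0.01, -0.02, 0.00 and 0.00. A 40S probe set was thus as often above as below 0, with 9 each.

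**Figure D2:**
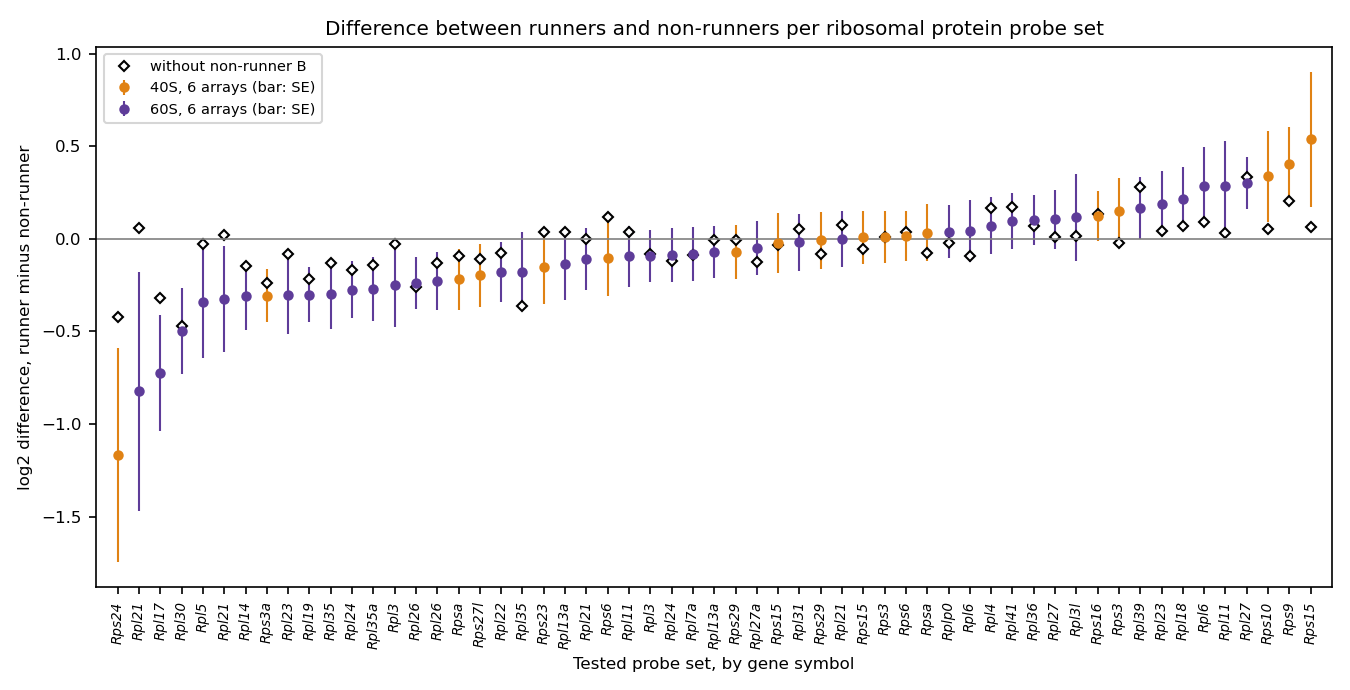
Difference between runners and non-runners (log2, runner minus non-runner) for each of the 57 tested ribosomal protein probe sets, in rising order. Filled points with SE bars are from all 6 arrays (orange for 40S, violet for 60S), and open diamonds are the difference without non-runner B. The outermost points, from -1.17 for Rps24 to 0.54 for a dim Rps15 probe set, have diamonds much closer to 0, and all diamonds lie between -0.47 and 0.33.

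**Figure D3:**
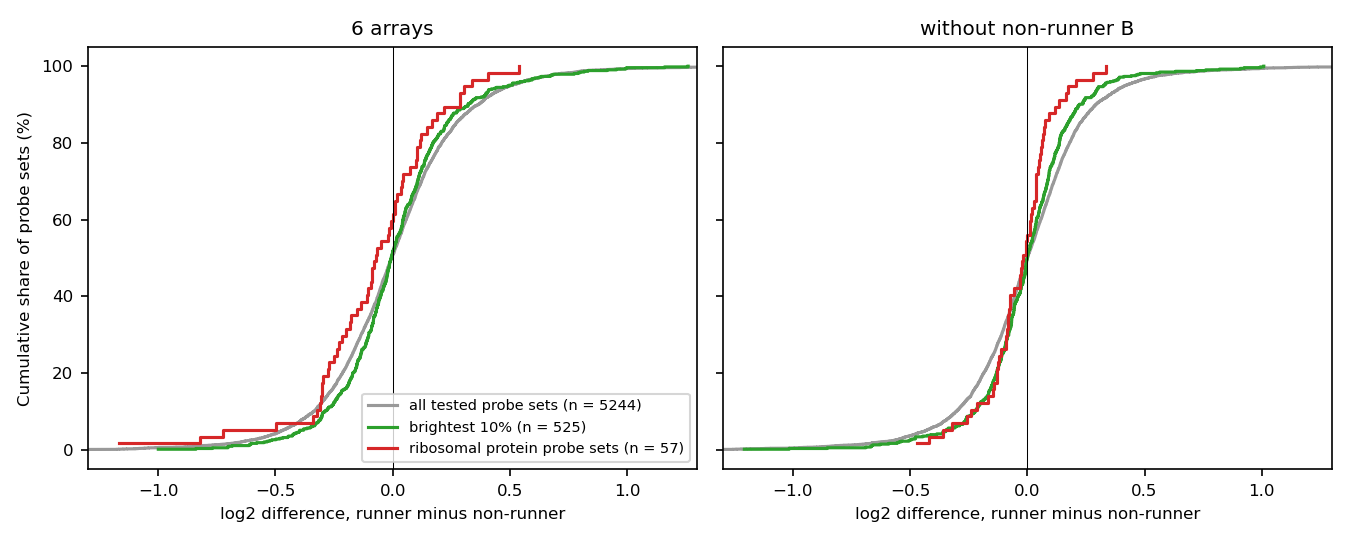
Cumulative share of probe sets (%) against the log2 difference, with all 6 arrays on the left and without non-runner B on the right, for the 57 members (red), the 525 brightest (green) and all 5244 tested probe sets (grey). With 6 arrays the red line lies to the left of the others around 0 (median -0.07 against -0.01); without non-runner B it crosses 0 beside them (median -0.02) and is steeper.

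Deposited intensities of the 3 runner arrays lay all above those of the 3 non-runner arrays for 3 of 57 members (5.26%, against 7.36% of all tested probe sets and 9.9% of the brightest 10%). They lay all below for 9 members (15.8%, against 7.49% and 13.9%). The 3 higher were Rps9, Rpl18 and the dimmer probe set of Rpl27. The 9 lower were Rps3a, Rpl14, Rpl17, Rpl19, the brighter probe set of Rpl35, both probe sets of Rpl24 and both of Rpl26. Rpl24, Rpl27 and Rpl35 are named after their values were seen.

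In the 40S subunit, Rps9, which sits near the mRNA entry of the ribosome and affects the accuracy of decoding, had the smallest p among genes that were higher. It measured 1599, 1101 and 1609 on non-runner arrays A, B and C and 1834, 1979 and 1679.5 on the runner arrays. All runner values were above all non-runner values, and non-runner B was far below the other 5 arrays. The means were 1436 ± 290.4 and 1831 ± 149.8 (SD, n = 3), and the log2 difference was 0.41 ± 0.20 (SE, limma adjusted p = 0.65), or 0.21 without non-runner B.

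Rps3a, a protein on the side of the 40S subunit where mRNA leaves, went the other way. It measured 1939, 2468 and 2081 in non-runners and 1784, 1849 and 1592 in runners. Runner C was lowest and non-runner B highest, and the groups did not overlap. The difference was -0.31 ± 0.14 (limma adjusted p = 0.643) and -0.24 without non-runner B, so it rests less on that array than that of Rps9.

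Rps24, mutated in some families with Diamond-Blackfan anaemia, had the most negative difference of all members. Its values were 135.2, 908.6 and 240.8 in non-runners and 157.4, 136.9 and 115.4 in runners. Non-runner B was several times above every other array, while non-runner A lay inside the range of the runners. The difference was -1.17 ± 0.58 (limma adjusted p = 0.65), with a 95% interval of -2.50 to 0.17, and -0.42 without non-runner B. Rps10, a protein at the mRNA entry that is ubiquitinated when ribosomes collide, had the reverse picture: 866.1, 444.2 and 785.5 in non-runners and 866.8, 916.1 and 775.2 in runners. Only non-runner B was low, and the difference of 0.34 ± 0.25 became 0.05 without it.

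Other 40S proteins were close to 0. Rps6, which S6 kinases phosphorylate when mTOR is active, measured 1148, 1868 and 1186 in non-runners and 1276, 1261 and 1177 in runners by its brighter probe set. The runner values lay among those of non-runners A and C or just above them, and non-runner B was the highest. Its difference was -0.10 ± 0.20, and 0.12 without non-runner B. The dimmer Rps6 probe set gave 706.2, 730.3 and 703.9 against 750.6, 734.1 and 692.5, with a difference of 0.02 and a 95% interval of -0.29 to 0.33.

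Rps29, a small zinc-binding protein and the brightest member, measured 3474, 3078 and 4027 in non-runners and 3200, 3421 and 3136 in runners, with a difference of -0.01 ± 0.15. The runner values lay inside the range of the non-runners. Rps16, whose tail reaches toward the tRNA in the P site, measured 2330, 2571 and 2501 in non-runners and 2618, 2532 and 2550.3 in runners, with a difference of 0.12 ± 0.13. Its groups overlapped through non-runner B. Rpsa, also known as the laminin receptor precursor, had 1449, 1170.1 and 1436 against 1390, 1386 and 1289 by its brighter probe set, a difference of 0.03 ± 0.15. The dimmer Rpsa probe set had 1216, 1705 and 1432 against 1264, 1229.5 and 1155. Its difference was -0.22 ± 0.17, or -0.09 without non-runner B.

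Of 4 proteins listed for mRNA entry and decoding, 3 were on the array by the rule and all were tested: Rps3 (0.01), Rps15 (0.01) and Rps23 (-0.15). Rps3, a platform of the mRNA entry channel, measured 1808, 2030 and 2027 in non-runners and 1899, 2080 and 1875 in runners. None of the 3 had groups that separated. Rps27l, a paralog of Rps27 that p53 induces, measured 477.2, 517.3 and 410.1 in non-runners and 463.9, 416.3 and 360.4 in runners. The difference was -0.20 ± 0.17. Its groups overlapped.

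In the 60S subunit, the tested proteins of a list for the exit of the peptide tunnel leaned the same way. The list was chosen with earlier results of these data known, so its counts are a description only. Of 7 listed for this site, 6 were tested and all 6 had a difference below 0, with a median of -0.27, or -0.17 without non-runner B, where Rpl31 was above 0 (0.05). None passed the threshold. By the brightest probe set, 4 of the 6 (Rpl17, Rpl19, Rpl26 and Rpl35) had runner values all below the non-runner values. Among all 27 genes of the 60S subunit, these included, 17 were below 0 and 6 had runner values all lower. The same count over all genes by their brightest probe set was 46.1% above 0, with a median of -0.02 and 14.3% without overlap in either direction. Runner values were all lower for 7.49% of all tested probe sets and 13.9% of the brightest 10%. Rpl39, which lines the tunnel but is not on the list, had a difference of 0.17, or 0.28 without non-runner B.

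Rpl19, which bridges the subunits as well as lying near the exit, measured 2168, 2730 and 2199 in non-runners and 2014, 1854 and 1852 in runners. Every runner array was below every non-runner array, and non-runner B was highest. The means were 2366 ± 316.2 and 1907 ± 93.3, and the difference was -0.30 ± 0.15 (limma adjusted p = 0.65), or -0.21 without non-runner B. Rpl26, at the rim of the exit and also known to bind p53 mRNA, measured 1825, 1820 and 1888 in non-runners and 1529.6, 1698 and 1428 in runners.

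In this probe set of Rpl26, the brighter of 2, non-runner B was close to the other non-runners and the groups were apart, with means of 1844 ± 38.1 and 1552 ± 136.3. The dimmer one measured 1422, 1840.2 and 1518 in non-runners and 1355, 1407 and 1218 in runners. Its groups were also apart, but non-runner B was well above the other non-runners. The 2 probe sets gave differences of -0.24 and -0.23 (limma adjusted p = 0.701 and 0.737), and -0.26 and -0.13 without non-runner B. Rpl35, where factors that act on new chains dock, measured 1137, 1768 and 1337 in non-runners and 1134, 1123 and 1063 in runners.

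In this probe set of Rpl35, the brighter of 2, non-runner A lay just above the highest runner, and the gap between groups came mostly from non-runner B. The difference was -0.30 ± 0.19, or -0.13 without that array. The dimmer Rpl35 probe set measured 774.1, 603.4 and 1068 in non-runners and 785.2, 665.8 and 651 in runners. Its groups overlapped, and non-runner B was its lowest array. Its difference was -0.18 ± 0.21, or -0.36 without non-runner B. Rpl17 was dim, with 49.9, 120.5 and 50.1 in non-runners and 41.5, 38.4 and 41.2 in runners. Its difference was -0.72 ± 0.31 (limma adjusted p = 0.618), or -0.32 without non-runner B. The runner mean of 40.4 was below the control level of 40.8, and 1 value, non-runner B, was far above the rest. Rpl22 (-0.18 ± 0.16) and Rpl31 (-0.02 ± 0.15) completed the list, with overlapping groups.

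Other 60S members with small p lay in both directions. Rpl14 measured 368.2, 501.4 and 360.2 in non-runners and 350.5, 318 and 320 in runners. All runner values were lower, with runner A close below non-runner C, and non-runner B was highest. The difference was -0.31 ± 0.18, or -0.15 without that array.

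Rpl30, which in yeast binds its own pre-mRNA, measured 78.8, 80.5 and 72.5 in non-runners and 39.5, 79 and 52.2 in runners. Here the spread lay in the runners, of which B was as high as the non-runners. The difference was -0.50 ± 0.23 (limma adjusted p = 0.643), and -0.47 without non-runner B. Rpl30 was 1 of the 4 genes that were not above the control level on every array.

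Rpl18 measured 632.6, 464.1 and 659.5 in non-runners and 686.9, 663 and 677.7 in runners. Runner values were all higher, but those of non-runner C and runner B nearly met. The difference was 0.22 ± 0.17, and 0.07 without non-runner B. Rpl6 had 1043, 752.3 and 1234 against 1216, 1380.5 and 1049 by its brighter probe set, a difference of 0.29 ± 0.21 that became 0.09 without non-runner B.

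The dimmer probe set of Rpl27 had a difference that hardly changed when that array was left out. It measured 612.9, 616.1 and 562.2 in non-runners and 749.1, 717.2 and 718.1 in runners. The groups were well apart and each was tight, with means of 597.1 ± 30.2 and 728.1 ± 18.2. The difference was 0.30 ± 0.14 (limma adjusted p = 0.643), and 0.33 without non-runner B. The brighter probe set of the same gene measured 1270.3, 993.4 and 1109 against 1236, 1206 and 1107, with overlapping groups and a difference of 0.11 ± 0.16.

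Rpl39, a small protein that lines the tunnel, measured 924.7, 1141 and 857.5 in non-runners and 972.6, 1138 and 1060.1 in runners. The groups overlapped through non-runner B, which was the highest array here. The difference was 0.17 ± 0.17, and 0.28 without that array, so in this gene leaving it out moved the value away from 0.

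Rpl5, Rpl11 and Rpl23 bind Mdm2 when ribosome assembly is disturbed, and Rpl5 and Rpl11 also carry the 5S ribosomal RNA. Rpl11 measured 1909, 1032 and 1541 in non-runners and 1764.5, 1899 and 1665 in runners by its brighter probe set. Only non-runner B was far from the rest, and the difference of 0.29 ± 0.24 became 0.03 without it. Rpl23 measured 1656, 2925 and 2029.7 in non-runners and 1895, 1709.8 and 1601 in runners, with non-runner B on the high side. Its difference was -0.30 ± 0.21, and -0.08 without that array. The dimmer Rpl23 probe set gave 0.19 ± 0.18, and 0.05 without that array.

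Rplp0, the base of the acidic stalk that recruits elongation factors and a common reference gene, measured 2745, 2615 and 3051 in non-runners and 2799.8, 2769 and 2596 in runners. The groups overlapped. The difference was 0.04 ± 0.14 with a 95% interval of -0.29 to 0.37 after quantile normalization, and -0.04 on the values as deposited. Rpl3, which shapes the peptidyl transferase centre, had -0.25 ± 0.22 and -0.09 ± 0.14 by its 2 probe sets, and Rpl13a, known for a translation silencing complex outside the ribosome, had -0.07 ± 0.14 and -0.14 ± 0.19.

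Rpl3l, the form of Rpl3 found in heart and skeletal muscle, was dim. It measured 62.2, 42.8 and 47.3 in non-runners and 37.7, 66.5 and 68.7 in runners. Runner A was the lowest array and runners B and C the highest, and the difference was 0.12 ± 0.23. The summed markers of skeletal and cardiac muscle were 517.9 to 656.2 in non-runners and 425.6 to 576.9 in runners.

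The displacement on non-runner B was not in 1 direction. It was the highest of the 6 arrays for 29 of 57 members (50.9%, against 31.6% of all tested probe sets and 37% of the brightest 10%) and the lowest for 17 (29.8%, against 26.7% and 31.2%). The median member level on it, each probe set centred on its mean over the arrays, was 0.13 above on the log2 scale, against -0.07 to 0.01 on the other 5 arrays. That shift lay in the 60S probe sets (0.15) and not in the 40S ones (-0.01). The SD over members of the log2 difference between 2 arrays was 0.61 to 0.73 for the 5 pairs with non-runner B and 0.14 to 0.27 for the other 10 pairs. Over all tested probe sets these ranges were 0.56 to 0.61 and 0.36 to 0.41. The 3′/5′ control ratios given above were highest on the same array, and their part in the results was not tested.

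**Figure D4:**
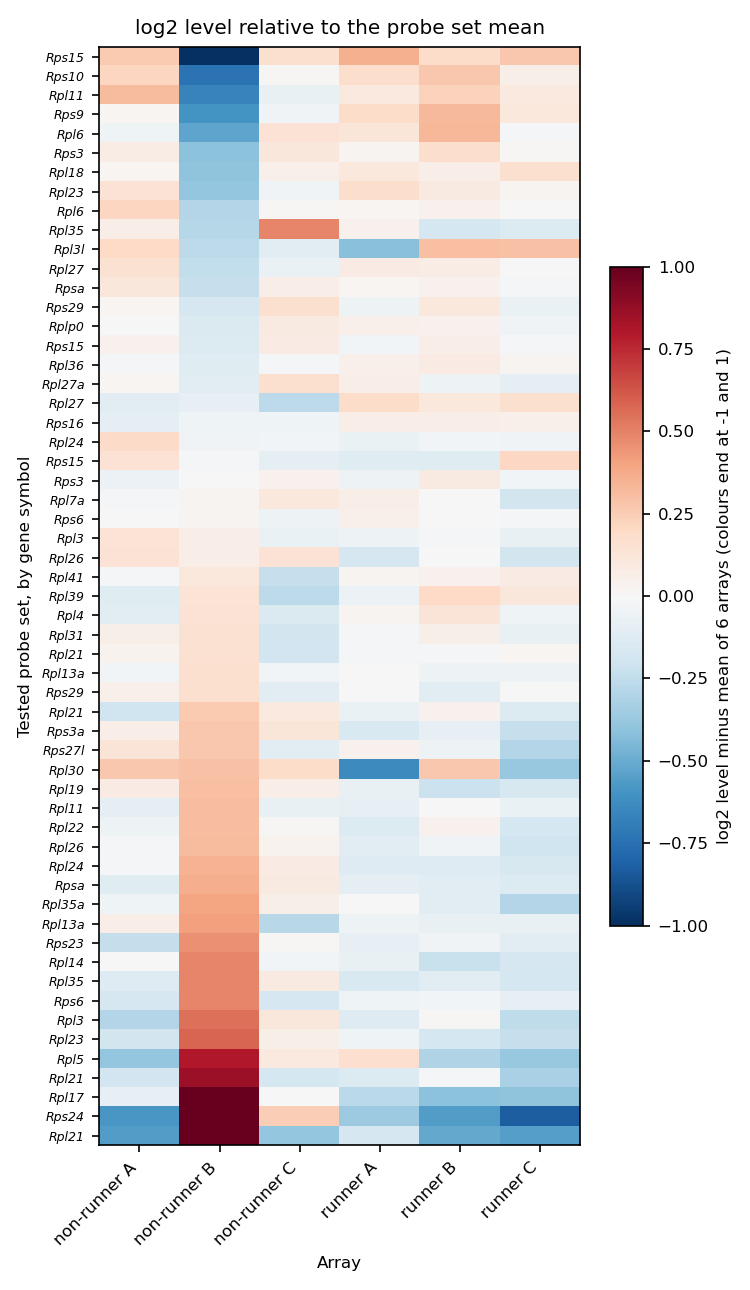
Level of each of the 57 tested ribosomal protein probe sets (rows) on each array (columns), as log2 minus the probe set's mean over the 6 arrays (red above, blue below, colours ending at -1 and 1). The column of non-runner B runs from strong blue at the top to strong red at the bottom, whereas most cells of the other 5 columns are pale.

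Probe sets of the same gene showed that displacement within a transcript. Of the 15 genes with at least 2 tested probe sets, 6 had non-runner B above the mean of the other 5 arrays in one probe set and below it in another. For Rpl11 these deviations were -0.80 and 0.37, for Rpl23 -0.47 and 0.70, for Rpl35 -0.35 and 0.59, and for Rpsa -0.27 and 0.43. The 4 Rpl21 probe sets were all above, by 0.19 to 2.61. In raw intensity, the Rpl23 probe sets measured 2925 on non-runner B against 1601 to 2030 on the other arrays, and 551.8 against 730.6 to 842.9.

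Of the 15 genes, 5 (Rpl11, Rpl23, Rps6, Rps15 and Rpsa) had probe sets whose differences between groups were of opposite sign, and without non-runner B there were 6 such genes. The widest such pair was in Rps15, whose brightest probe set gave 0.01 and whose dim one gave 0.54 ± 0.37. That dim probe set measured 315.5, 110.7 and 288 in non-runners and 337.9, 298.9 and 309.6 in runners, so that only non-runner B was low. The median gap between the lowest and highest difference of a gene was 0.19, and 0.08 without non-runner B, where it was narrower in 11 of 15 genes. In Rpl11 it went from 0.38 to 0.01.

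**Figure D5:**
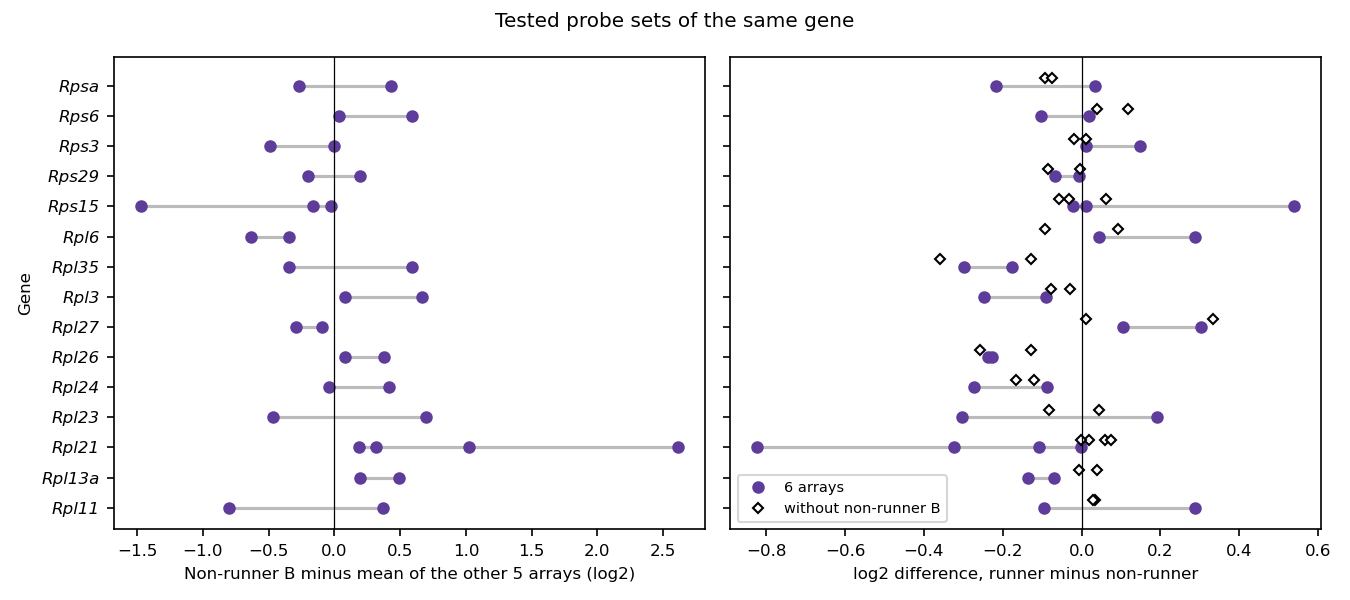
The 15 ribosomal protein genes with at least 2 tested probe sets, 1 row per gene and 1 point per probe set. The left panel gives non-runner B minus the mean of the other 5 arrays (log2), with points on both sides of 0 for 6 genes, and the right panel gives the difference between runners and non-runners with 6 arrays (filled) and without non-runner B (open), where the open points of 11 genes lie closer together.

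The other genes of translation gave no call either. Each list below was taken by the brightest probe set of its genes, and 0 genes of any of them passed the adjusted threshold. The 14 mitochondrial ribosomal proteins had 7 differences above and 7 below 0, a median of 0.00, and Mrpl52 with the smallest p (148.7 ± 26.2 in non-runners, 115 ± 16.6 in runners, -0.36). Of 17 initiation factors, 4 were above and 13 below 0, with a median of -0.08, or 0.03 without non-runner B. Eif4h, a cofactor of the helicase that unwinds mRNA, had 366.6 ± 91.6 and 282.1 ± 12.2, a difference of -0.36, or -0.16 without that array.

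Elongation factors were represented by 5 tested genes, with 3 above and 2 below 0, a median of 0.03 and the smallest p for Eef1g (-0.28). Other transcripts with a TOP tract were represented by 8 tested genes with 3 above and 5 below 0 and a median of -0.04. Of these only Hnrnpa1, a splicing factor, had an unadjusted p under 0.05, with 119 ± 11.5 in non-runners and 88.6 ± 16.3 in runners (-0.43, limma adjusted p = 0.587). Over all tested genes, 7.41% had an unadjusted p under 0.05.

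Ribosome assembly and its transcription were represented by 10 tested genes, with 5 above and 5 below 0. The transcription factor Myc measured 75, 110.6 and 60.6 in non-runners and 36.6, 30.3 and 43 in runners. The difference was -1.10 ± 0.23 (limma adjusted p = 0.293) and -0.87 without non-runner B. Its groups did not overlap, and the runner mean of 36.6 was below the control level. Ubtf, a factor of RNA polymerase I, had means of 30 ± 1.6 and 40.6 ± 1.1, both below that level, so no fold is given for it. Among 11 tested genes of mTOR and S6 kinase signalling, 6 were above and 5 below 0, with a median of 0.03 and none at an unadjusted p under 0.05 in this limma fit.

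The probe sets with several symbols that include a ribosomal protein, 37 of them tested, gave a second look at the same family. At an unadjusted p under 0.05 there were 0, and the median difference was -0.04, or -0.01 without non-runner B. Their range was -0.30 to 0.34, and 34 of 37 lay within 0.3 of 0. On non-runner B their median centred level was -0.04.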

How the data were processed

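The deposited table gives 1 intensity per probe set and array on a linear scale. For the software behind them: not given in the sources used here. Per the deposited values, array means trimmed by 2% at each end were 99.6 to 99.9, as after a common scaling. Arrays have no read depth, and their number limits the precision.

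Members and gene lists were chosen with earlier results of these data known. Intensities were analysed as log2(intensity + 2.4), so that differences of dim probe sets are understated. Array medians differed by up to 1.13 times, so quantile normalization followed. The filter removed controls and, by mean log2, 40% of the remaining probe sets. Groups were compared with limma 3.58.1 in R 4.3.3 (lmFit, eBayes, two-sided, Benjamini-Hochberg over 5244 probe sets, threshold 0.05), and the procedure was tested on simulated data. Group means, SDs and overlap are from the deposited intensities, and differences and intervals from the normalized log2 values.

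Named members are the 6 higher and 6 lower genes with the smallest p, the 4 brightest and 3 dimmest, a preset list of 16, and genes whose probe sets differ in sign by over 0.5. Up to 3 genes of each related list were taken by p, and marker lists were used to check the tissue. Gene identifiers of 38 of 39 members matched GRCr8 with the same symbol. Chip letters were checked as pairs: same-letter arrays had correlations of -0.09, -0.04 and -0.05 in their deviations from the group means, so letters were not used. Alternatives were other pseudocounts, scalings, filters, variance models, a block on the letter, averaged probe sets per gene, fewer probe set types, and leaving out each array. Figures were drawn with matplotlib 3.10.9.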

Additional observations from a re-analysis of the deposited data

How the results depend on the processing

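No ribosomal protein probe set passed the adjusted threshold in any alternative. At an unadjusted limma p under 0.05, the main fit had 0 higher and 0 lower. With a pseudocount of 16 there were 1 higher and 2 lower, against 4.12% and 4.48% of all tested probe sets. An intensity trend in the variance, plain or robust, gave 2 higher and 4 lower. For the plain trend, 4.08% and 4.56% of all tested probe sets were called. Centring arrays on medians gave 1 lower (5% of all tested), and so did leaving out the dimmest 60% (4.41%). Leaving out cross-hybridizing probe set types or averaging a gene's probe sets also gave 1 lower. Leaving out 1 array gave 0 to 2 higher and 0 to 3 lower. With the replicate block on the chip letter, which the correlations do not support as a pairing, there was 1 lower and 0 higher.

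Members with separate groups (3 higher, 9 lower) became 1 higher and 6 lower with centring on medians (5.21% and 9.19% of all tested). They became 1 higher and 7 lower with centring on the other probe sets (7.34% and 7.32%). Averaged probe sets gave 5 higher and 8 lower, and quantile normalized values (chosen after seeing the data) 5 higher and 7 lower. Among the 31 probe sets left without cross-hybridizing types, 5 were lower. Leaving out 1 array, which makes separation easier, gave 3 to 7 higher and 10 to 17 lower. In this and the preceding paragraph, counts without a share beside them are not set against all tested probe sets. The median difference was -0.15 with centring on medians (-0.05 for all tested) and -0.09 to -0.02 without 1 array.

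Of 25 named genes, 19 kept their sign in every alternative. Without quantile normalization, Rplp0 became -0.040 and Rps15 -0.019. With arrays centred on medians, Rplp0 became -0.092, Rpsa -0.042 and Rps15 -0.071, and with centring on the other probe sets Rplp0 became -0.046 and Rps15 -0.025. With averaged probe sets, Rpl3l became -0.23 and Rpsa -0.092. Leaving out 1 array gave -0.084 to 0.064 for Rps29, -0.024 to 0.092 for Rplp0, -0.0031 to 0.36 for Rpl3l, -0.074 to 0.10 for Rpsa, -0.22 to 0.12 for Rps6 and -0.056 to 0.054 for Rps15. The cause was not tested.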
